A study of Homo sapiens with 4 samples.

Results

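Chromatin immunoprecipitation with sequencing (ChIP-seq) peaks were examined on sequences of the human assembly hg38 that lie outside the assigned chromosomes. A member was a peak of the FLAG list or of the SMAD3 list that overlapped no peak of the other list by 1 bp or more and whose sequence name was not 1 to 22, X, Y or M. The rule gave 521 of the 16650 peaks of both lists: 342 of 9466 FLAG peaks and 179 of 7184 SMAD3 peaks. These lay on 148 sequences, called contigs here, of which 109 held FLAG members, 91 held SMAD3 members and 52 held both. A further 23 FLAG and 24 SMAD3 peaks on such sequences overlapped the other list and were left out.

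The cells were A549, a human lung adenocarcinoma line, stably transduced with a retrovirus that carried ATOH8. ATOH8 is a basic helix-loop-helix transcription factor, and SMAD3 is a transcription factor that relays TGF-beta receptor signals to the nucleus. There were 4 libraries, which were a ChIP with a FLAG antibody, a ChIP with a SMAD3 antibody, and an input of each ChIP, that is sonicated chromatin taken without antibody. The FLAG ChIP is read here as tagged ATOH8 because the series title and design imply it. All 4 libraries came from the ATOH8 cells, so there is no library of cells without the transgene, and whether the line is 1 clone is not given in the sources used here. Each antibody had 1 ChIP library, so no difference has a replicate check and no test was made. Peak lists hold no expression values, so the labelled cell type could not be compared with its markers.

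Unlocalized scaffolds are pieces of an assembly known to belong to a chromosome without a place on it, and unplaced scaffolds are pieces whose chromosome is unknown. Many come from centromeres, the short arms of acrocentric chromosomes and other regions rich in satellite repeats or segmental duplications, where near-identical copies defeat assembly. Alternate loci are second versions of a variable region, and patch scaffolds are later corrections or additions, so most of their sequence is also present on an assigned chromosome. Ribosomal DNA encodes the 18S, 5.8S and 28S ribosomal RNAs as one long 45S transcript, and it stands in tandem arrays on the short arms of the acrocentric chromosomes. On all of these a read can match several places, and how such reads were placed is not given in the sources used here. The sequence of the contigs was not used here, so their repeat content was not analysed and no sequence is printed. Gene content was analysed for the ribosomal RNA genes alone.

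The FLAG ChIP kept 17133946 tags after duplicate filtering and its input 20785894, and the SMAD3 ChIP kept 16857119 and its input 17215727. Pileup is the number of extended tags over the summit, and fold is the authors' ratio of pileup plus 1 to local background plus 1. The background in tags that this ratio implies is called the implied input background. Its floor, set by the depth of the ChIP library, was 1.53 tags for FLAG and 1.27 tags for SMAD3. The authors called peaks with a p cutoff of 0.0065, which is permissive, and a q under 0.05 is used below as the stricter call.

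By accession, 168 of the 342 FLAG members (49.1%) lay on unlocalized or unplaced scaffolds of the primary assembly, 99 (28.9%) on alternate loci and 75 (21.9%) on patch scaffolds. Of the 179 SMAD3 members, 90 (50.3%) lay on primary scaffolds, 29 (16.2%) on alternate loci and 60 (33.5%) on patch scaffolds. Alternate loci and patches together held 50.9% of FLAG members (95% Clopper-Pearson interval 45.4 to 56.3) and 49.7% of SMAD3 members (42.2 to 57.3). These intervals, like all others below, cover counting error only. The edge of the rule fell between a FLAG and a SMAD3 member on KI270905.1 that lay 34 bp apart, with pileups of 6 and 5 tags, and a pair on KI270715.1 that overlapped by 77 bp and was left out, with pileups of 8 and 7 tags.

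FLAG members passed the stricter call at a higher share than unshared FLAG peaks on assigned chromosomes. Of the 342, 153 had a q under 0.05 (44.7%, 39.4 to 50.2), where 25.7% of all FLAG peaks did. Among the 8883 FLAG peaks on assigned chromosomes that also overlapped no SMAD3 peak, 2121 did (23.9%, 22.99 to 24.8). A −log10 q of 5 or more was reached by 75 FLAG members (21.9%), against 7.19% of all FLAG peaks. In the SMAD3 list 26 of 179 had a q under 0.05 (14.5%, 9.71 to 20.6), against 7.89% of all SMAD3 peaks and 432 of 6761 unshared ones on assigned chromosomes (6.39%, 5.82 to 6.999). Only 3 SMAD3 members (1.68%) reached a −log10 q of 5, against 1.18% of all SMAD3 peaks.

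Within the FLAG list the share varied by kind of contig, and on alternate loci it rested on 2 contigs. On primary scaffolds 89 of 168 FLAG members had a q under 0.05 (53.0%, 45.1 to 60.7). Among those with an implied input background under 5 tags, 41 of 110 did (37.3%, 28.2 to 47.0), against 19.5% of such peaks on assigned chromosomes. Of those 110, 56 stood in the runs described below (50.9%), so these shares are not like for like. On alternate loci 48 of 99 FLAG members had a q under 0.05 (48.5%, 38.3 to 58.7). Of those 48, 33 lay on KI270772.1 and KI270894.1, and on the remaining alternate loci 15 of 64 passed (23.4%, 13.8 to 35.7), near the share on assigned chromosomes. On patch scaffolds 16 of 75 did (21.3%, 12.7 to 32.3), close to the share on assigned chromosomes. In the SMAD3 list the counts were 18 of 90 on primary scaffolds (20%, 12.3 to 29.8), 2 of 29 on alternate loci (6.90%, 0.846 to 22.8) and 6 of 60 on patches (10.0%, 3.76 to 20.5), and these intervals overlap. Peaks on 1 contig share their source and are not independent, so the intervals are too narrow for a statement about contigs.

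**Figure D1:**
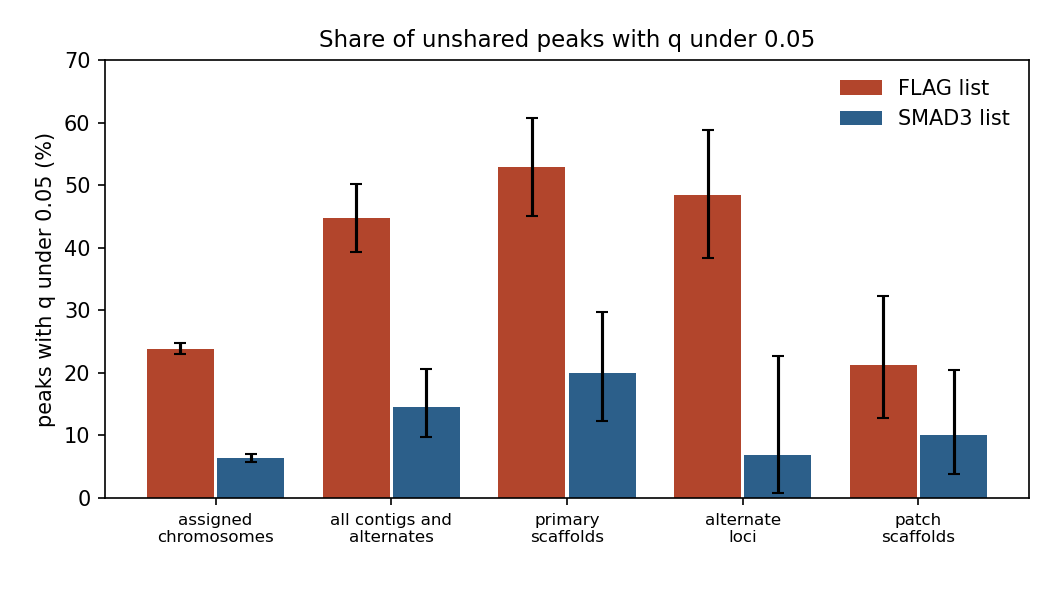
Share of peaks with a q under 0.05 (%), for FLAG and SMAD3 peaks that overlap no peak of the other list, on assigned chromosomes and by kind of contig; bars are shares and whiskers are 95% Clopper-Pearson intervals. FLAG bars on primary scaffolds (53.0%) and alternate loci (48.5%) stand above assigned chromosomes (23.9%), the latter through KI270772.1 and KI270894.1, without which it is 23.4%; the patch bar is at 21.3%.

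The median fold of FLAG members was 3.16 and that of unshared FLAG peaks on assigned chromosomes was also 3.16, and for SMAD3 both medians were 3.09. The ends of the range differed. A fold of 5 or more was found at 7.60% of FLAG members (5.03 to 10.9) against 3.74% on assigned chromosomes, and a fold under 2 at 8.19% against 1.44%. Of SMAD3 members 9.50% had a fold under 2, against 0.444%. Pileup was higher: the median FLAG member had 10 tags against 8 on assigned chromosomes, and the median SMAD3 member had 8 against 7. The input moved with it. An implied input background of 5 tags or more was present at 96 FLAG members (28.1%) against 8.58% of unshared FLAG peaks on assigned chromosomes, and at 35 SMAD3 members (19.6%) against 2.19%.

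Of the 96 FLAG members with a background of 5 tags or more, 83 had a q under 0.05 (86.5%, 78.0 to 92.6), and their median fold was 2.63 at a median pileup of 61 tags. On assigned chromosomes 541 of 762 such peaks did (71.0%). Those 762 had a median background of 9.89 tags and a median pileup of 29, against 19.8 and 61 at the members. Of the 96 members, 57 stood in the runs described below (59.4%), against 15.2% of the 762, so the shares are not like for like. Of the 246 FLAG members with less background, 70 had a q under 0.05 (28.5%, 22.9 to 34.5), against 1580 of 8121 on assigned chromosomes (19.5%, 18.6 to 20.3). Of these 246, 63 stood in runs (25.6%), against 130 of the 8121, so these shares are not like for like either. Among the 70 that passed, 13 lay in the run on KI270747.1, and 5 and 2 in those on KI270729.1. The runs on KI270716.1 and KI270863.1 held 4 each, so part of the higher share came from a few contigs. In the SMAD3 list 10 of the 144 members with a background under 5 tags passed (6.94%, 3.38 to 12.4), against 381 of 6613 (5.76%), so in that list the share without high-input places was near that of assigned chromosomes. At a given fold, q depends on the number of tags, so a peak on a high background needs less fold to pass. The part of the input in the higher share was not tested beyond this split.

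**Figure D2:**
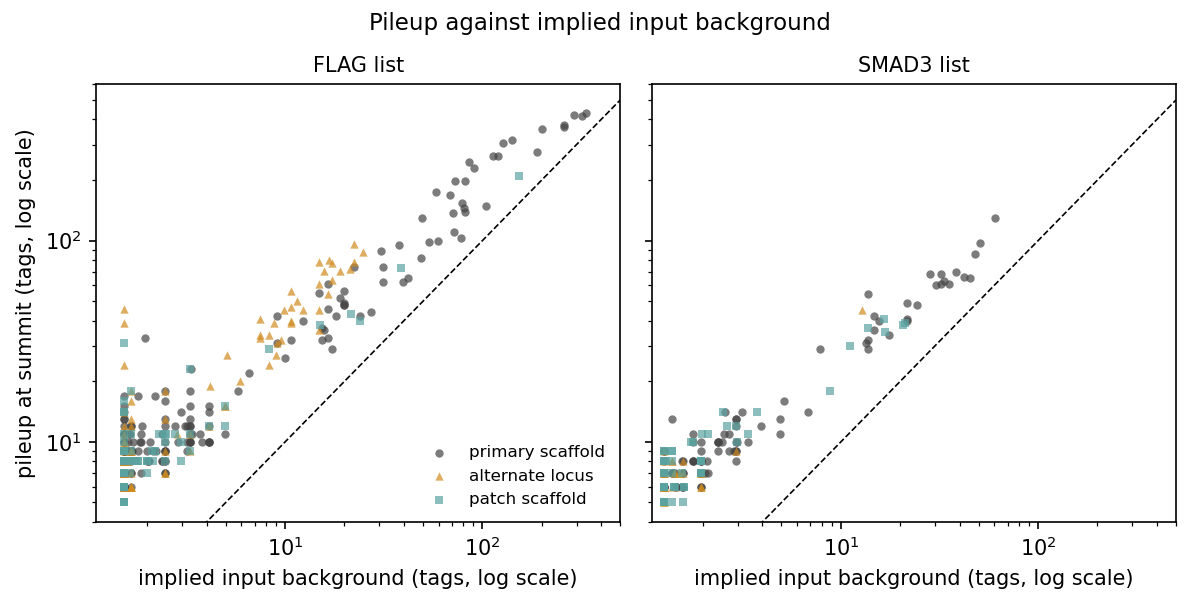
Pileup at the summit against implied input background, both in tags on log scales, for 342 FLAG members (left) and 179 SMAD3 members (right), with 1 point per peak marked by kind of contig. FLAG members reach 432 tags on a background of 335, and SMAD3 members reach 130 tags on 60.7.

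FLAG members were also wider, mostly through those in the runs described below. Their median width was 314.5 bp (range 241 to 3698) against 274 bp on assigned chromosomes, and 20 of 342 (5.85%) were 1 kb or wider against 72 of 8883 (0.811%). The 120 members in runs had a median of 399.5 bp and held 17 of those 20. The 222 outside runs had a median of 285 bp (266 to 297), and 3 were 1 kb or wider (1.35%, 0.280 to 3.90). SMAD3 members had a median width of 230 bp (range 203 to 612) against 218 bp, and none reached 1 kb. The shortest widths equal the fragment lengths that the caller modelled, 241 bp for FLAG and 203 bp for SMAD3.

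Members were spread thinly over most contigs and were dense on a few FLAG contigs. Of the 109 contigs with FLAG members, 66 held 1, and 9 contigs with 10 or more held 158 of the 342. Of the 91 contigs with SMAD3 members, 56 held 1, and the 2 contigs with 10 or more held 22 of the 179. The unlocalized chromosome 17 scaffold KI270729.1 had most FLAG members, 35, and 1 SMAD3 member. KI270747.1 had 22 FLAG members and no SMAD3 member, and the chromosome 2 alternate locus KI270772.1 had 19 and none. KI270894.1, another alternate locus of chromosome 2, had 16 and 1, the chromosome 1 scaffold KI270709.1 had 14 and 1, and the chromosome 2 scaffold KI270716.1 had 13 and none. The large patches were more even, with 16 FLAG and 10 SMAD3 members on ML143371.1 and 11 and 12 on KZ208915.1.

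**Figure D3:**
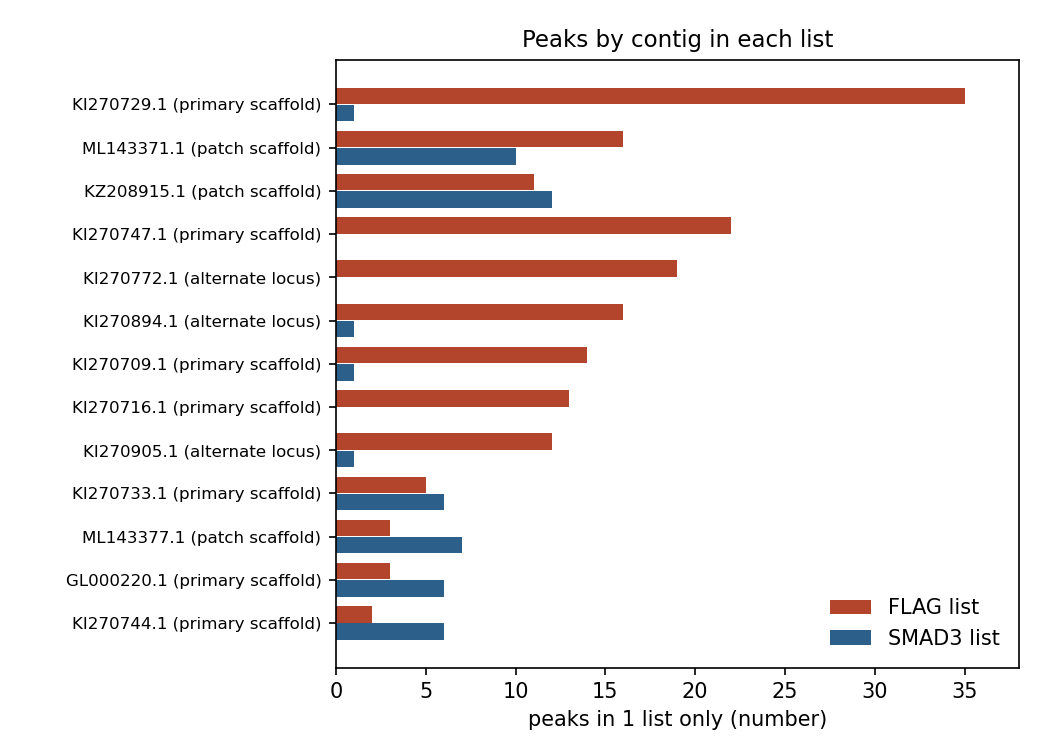
Number of members by contig (horizontal axis, peaks in 1 list only), with a FLAG and a SMAD3 bar for each contig named by the rule in the processing account. KI270729.1 leads with 35 FLAG members, and bars of similar length in both lists are seen on patches such as KZ208915.1 (11 and 12).

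The dense FLAG members formed runs, defined after the data were seen as 5 or more members on a contig with gaps of at most 5 kb. There were 10 runs on 9 contigs with 120 of the 342 FLAG members (35.1%, 30.0 to 40.4), where 246 of 8883 unshared FLAG peaks on assigned chromosomes stood in such runs (2.77%, 2.44 to 3.13). No SMAD3 member stood in one (0 of 179, an interval of up to 2.04%), and none of the 6761 unshared SMAD3 peaks on assigned chromosomes did. Runs were sought among unshared peaks only, so these counts do not cover SMAD3 peaks that the rule left out. On GL000226.1, 1 SMAD3 member and 6 SMAD3 peaks that the rule left out stood with gaps under 5 kb. Of the 120 FLAG members in runs, 86 had a q under 0.05 (71.7%) and 17 were 1 kb or wider. Outside runs 67 of 222 passed (30.2%, 24.2 to 36.7).

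The runs were of separate kinds by input. In a first kind the input was near its floor. KI270747.1 held 21 FLAG members within 31183 bp (positions 49535 to 80717), which covered 36.9% of that stretch. Their pileups ran from 6 to 18 tags with a median of 9, on a background of 1.53 to 2.47, and their folds from 2.30 to 6.46 with a median of 3.95. Of them 13 had a q under 0.05, and no SMAD3 peak lay in the stretch. The scaffold KI270716.1 was similar, with 8 FLAG members between 172 and 10324 that covered 64.5% of the stretch, pileups of 8 to 14 tags and folds of 2.15 to 5.93. The alternate locus KI270863.1 had 5 between 56990 and 62800, with 9 to 18 tags and folds of 3.78 to 5.47. Neither of these had a SMAD3 peak in its stretch.

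KI270729.1 had 27 of its 35 FLAG members in runs, 19 between 101524 and 137794 and 8 between 153136 and 167011, again with no SMAD3 peak in either. The remaining 8 lay outside runs with 7 to 17 tags and folds of 2.15 to 5.65, and 4 of them had a q under 0.05. The run of 19 was sparser, with 19.7% of the stretch covered, 7 to 33 tags and folds from 2.02 to 11.5 with a median of 3.02. In it 5 had a q under 0.05, and 2 of the 8 did in the shorter run. One peak stood out from its neighbours: positions 116998 to 117896 held 33 tags on a background of 1.95, which is 11.5-fold with a −log10 q of 24.1.

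In a second kind of run both ChIP and input were raised and the fold was kept. KI270772.1 held 18 FLAG members between 521 and 27036 that covered 51.3% of the stretch, with 7 to 96 tags (median 58.5) on a background of 2.47 to 24.7 (median 14.8) and folds of 2.30 to 4.99. Of them 17 had a q under 0.05. KI270894.1 held 16 between 192250 and 214017 that covered 49.6%, with 19 to 80 tags (median 39.5) on 4.17 to 16.7 (median 9.89), folds of 2.70 to 4.99 and a q under 0.05 at all 16. No SMAD3 peak lay in either stretch. The SMAD3 input level in these stretches is not given where the SMAD3 list has no peak.

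KI270709.1 carried the deepest of the long runs. Its 14 FLAG members between 97 and 17557 had 95 to 315 tags (median 197.5) on a background of 37.9 to 142 (median 80.4). The folds were 1.92 to 2.96, below those of the other long runs in their median of 2.42, and all 14 had a q under 0.05, the highest −log10 q being 39.6 at 11191 to 11574. The stretch also held 2 SMAD3 peaks, each of which overlapped a FLAG peak that the rule left out, so it is not a FLAG-only stretch. The median step from summit to summit was 1244 bp on KI270709.1, 1226.5 bp on KI270747.1, 1226 bp on KI270772.1 and 1262 bp on KI270894.1. It was longer in the other runs, at 1707.5 and 1612 bp in the KI270729.1 runs and 1375 bp on KI270716.1. On KI270863.1 it was 1350.5 bp, on KI270438.1 1753 bp and on GL000226.1 2819.5 bp, so no common step was seen. Steps within a run are bounded by the peak widths and by the gap that defines a run.

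**Figure D4:**
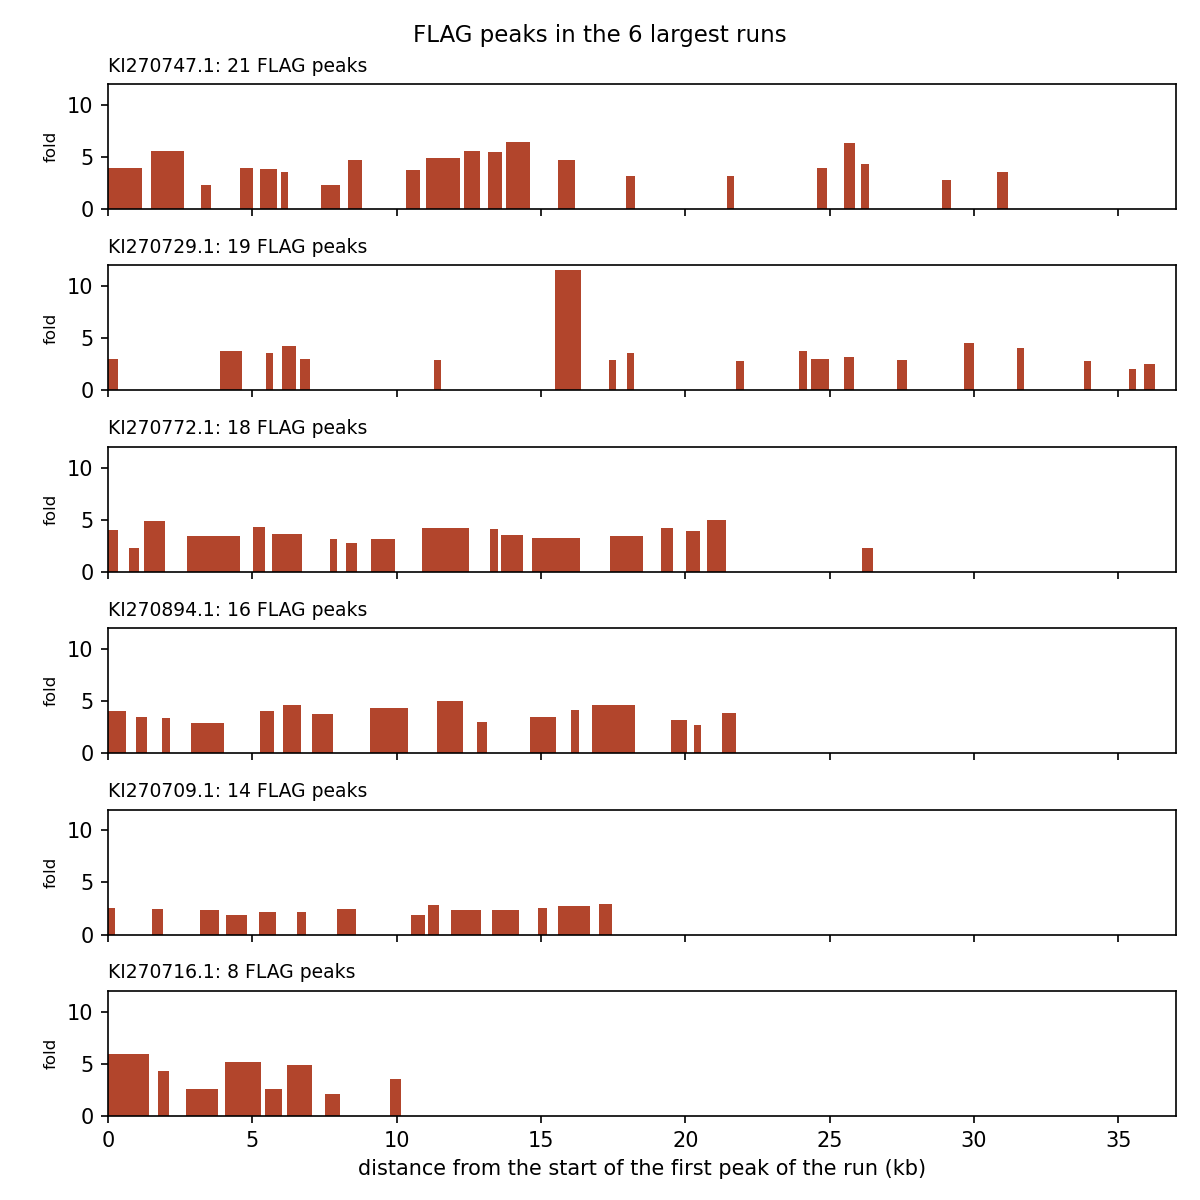
Fold enrichment (bar height) of each FLAG member by distance from the start of the first peak of its run (horizontal axis, kb). There is 1 panel for each of the 6 largest runs, and the width of each bar is the peak width. Folds on KI270709.1 stay between 1.92 and 2.96, and the peak with 11.5-fold on KI270729.1 stands above all others drawn.

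The 3 highest pileups of the FLAG list's members stood on inputs of 290 tags or more, with folds of 1.45 or less. KI270438.1, an unplaced scaffold, had 6 FLAG members between 101840 and 112317 with 139 to 432 tags on a background of 81.3 to 335, and folds of 1.29 to 1.70. Its 3 deepest had 432 tags on 335 (1.29-fold), 421 on 290 (1.45-fold) and 416 on 321 (1.29-fold). The stretch also held 1 SMAD3 peak, which overlapped a FLAG peak that the rule left out. KI270310.1 had 1 member at 613 to 1042 with 357 tags on 200 (1.78-fold), which is named after its value was seen. With 1 tag kept per position and strand and an extension of 241 bp, the pileup of this library cannot pass 482 tags, so pileup and fold are compressed near that level. GL000226.1 had 5 FLAG members between 3288 and 14068 with 46 to 89 tags, folds of 2.36 to 3.22. The same stretch held 5 SMAD3 peaks, all of which overlapped FLAG peaks that the rule left out. GL000225.1, a scaffold of chromosome 14, had 4 FLAG members with 44 to 148 tags and folds of 1.42 to 1.596, and 5 SMAD3 members with 8 to 61 tags and folds of 1.71 to 3.97.

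Of the 5 FLAG members with the highest folds, the KI270729.1 peak stood inside a run, and the other four, outside runs, had a background at the floor. On KI270789.1, an alternate locus of chromosome 4, positions 104447 to 108144 were called as 1 peak of 3698 bp with 46 tags on 1.53, 18.6-fold with a −log10 q of 45.5. Its neighbour at 103337 to 104244 had 39 tags and was 15.8-fold with a −log10 q of 35.5. These were the contig's only members, and it had no SMAD3 peak. They ranked 12 and 18 by fold among the 9466 FLAG peaks. The patch KN538370.1 had 31 tags at 33229 to 34054, 12.7-fold (rank 26), and KI270908.1, an alternate locus of chromosome 17, had 24 tags at 11116 to 11899, 9.88-fold (rank 43). With the KI270729.1 peak above (rank 32), 4 of the 42 FLAG peaks of 10-fold or more were members, where 342 of all 9466 FLAG peaks were. The KI270789.1 peaks among these 4 are neighbours on 1 contig. None of the 6 such SMAD3 peaks was a member, where 179 of all 7184 SMAD3 peaks were, so 6 are too few to compare.

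On the long alternate locus of chromosome 15 and on the long patches, FLAG members were scattered, and the share with a q under 0.05 was on each below the 25.7% of all FLAG peaks, by counts too small to tell it from that share. KI270905.1 had 12 FLAG members spread from 74040 to 5066563 with 6 to 18 tags and folds of 2.64 to 7.17, of which 3 had a q under 0.05. The strongest, at 4829343 to 4829803, had 18 tags and a −log10 q of 8.98. ML143371.1 had 16 with folds of 2.54 to 4.53, 3 of them with a q under 0.05, and KZ208915.1 had 11 with folds of 2.26 to 5.58, of which 2 passed. The widest of KZ208915.1, at 4813483 to 4814614, spanned 1132 bp with 23 tags.

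On the same patches the counts of SMAD3 members were too small to tell their share from the 7.89% of all SMAD3 peaks that passed the stricter call. The 10 on ML143371.1 had 5 to 10 tags and folds of 2.32 to 4.18, and none had a q under 0.05. The 12 on KZ208915.1 had 5 to 14 tags and folds of 2.65 to 4.40, and 1 passed. ML143377.1, a patch with raised input, had 7 SMAD3 members with 7 to 41 tags and folds of 1.81 to 2.70, of which 3 passed, and 3 FLAG members with 38 to 43 tags and folds of 1.65 to 2.42, of which 1 passed.

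By fold, the first SMAD3 member was on KI270715.1, a scaffold of chromosome 2, at 156940 to 157219. It had 13 tags on 1.39, 5.85-fold with a −log10 q of 4.21, and ranked 25 among the 7184 SMAD3 peaks. The next 4 were tied at 4.41-fold with 9 tags each, a −log10 q of 1.34 and rank 174. They lay on KI270715.1 at 145644 to 145846, on GL383555.2 at 274790 to 275108, on KI270745.1 at 11595 to 11797 and on KQ983258.1 at 184878 to 185080. Members with a higher −log10 q than these are given below.

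The deepest SMAD3 members also lay where the input was high. GL000216.2 had 130 tags on 60.7 at 166701 to 166905, 2.12-fold with a −log10 q of 8.68, and a second of 68 tags on 32.3 at 164329 to 164572. KI270744.1 had 4 members between 116799 and 124620 with 66 to 97 tags and folds of 1.55 to 1.89, of which the deepest had 97 tags on 50.9 (1.89-fold) and the next 86 on 48.0 (1.78-fold). The nearest FLAG peak to these lay 93836 bp from the first of them. The other 2 members with a −log10 q of 5 or more, named after their values were seen, were KI270466.1 at 898 to 1125, with 54 tags on 13.7 (3.74-fold, −log10 q of 10.5), and KI270816.1 at 146471 to 146678, with 45 on 12.7 (3.35-fold, −log10 q of 6.73). The widest SMAD3 member, on KI270743.1 at 197935 to 198546, spanned 612 bp with 7 tags and a −log10 q of 0.

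Ribosomal DNA is the one known gene content described here. GL000220.1 and KI270733.1 each carry a full 45S unit, RNA45SN5 at 105424 to 118780 and RNA45SN4 at 122273 to 135645, and a second 18S copy annotated as a pseudogene, RNA18SP3 and RNA18SP4. The starts of the 18S copies lie 43972 bp apart on GL000220.1 and 45081 bp apart on KI270733.1. These are GRCh38.p14 positions from a RefSeq gene table, which gives them without a scaffold name, so the scaffold of each gene is taken from the published annotation of that assembly. The scaffolds held 20 members, 8 FLAG and 12 SMAD3. They also held a pair that overlapped and was left out, at 166497 to 166835 in the FLAG list and 166524 to 166834 in the SMAD3 list, both on KI270733.1.

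All 20 had a background of 9.93 tags or more, and their folds lay between 1.67 and 2.72. The 8 FLAG members had a median fold of 1.92 and the 12 SMAD3 members one of 2.08, both below the medians of all members of their list. Members with a background of 5 tags or more had median folds of 2.63 for FLAG and 2.03 for SMAD3. Against these the SMAD3 median on ribosomal DNA was not lower. A q under 0.05 was found for 6 of the 8 FLAG members (75%) and 5 of the 12 SMAD3 members (41.7%), near the 71.0% and 34.5% of unshared peaks on assigned chromosomes with a background of 5 tags or more, and none reached a −log10 q of 5. The copies are near-identical, so which copy a tag came from is uncertain, and a peak on 1 copy is not evidence on that copy against another.

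SMAD3 peaks recurred at the 5′ external transcribed spacer, the stretch between the start of the 45S transcript and 18S. On GL000220.1 a member at 107441 to 107766 had its summit 1497 bp before the start of RNA18SN5, with 36 tags on 14.7 (2.36-fold, −log10 q of 1.42). On the same scaffold a member at 151448 to 151652 had its summit 1454 bp before RNA18SP3, a unit without an annotated 45S transcript, with 31 tags on 13.5 (2.21-fold, −log10 q of 0.614). On KI270733.1 a member at 124042 to 124547 had its summit 1510 bp before RNA18SN4, with 34 tags on 17.6 (1.88-fold, −log10 q of 0.0489).

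A chromosome 21 SMAD3 peak, which is no member, stood 1370 bp before RNA18SN1 with 34 tags on 11.8 (2.75-fold, −log10 q of 2.53). These 4 peaks, in 4 of the 8 units of the table, share an interval from 1569 to 1398 bp before 18S, and no FLAG peak of any of the 8 units overlapped it. The interval was picked after the peaks were seen, and 2 of the 4 peaks miss a q of 0.05. Since the copy that a tag came from is uncertain, the 4 peaks cannot be taken as 4 independent observations.

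The other SMAD3 members were spread over the unit. On KI270733.1 the member with the highest −log10 q, 3.55, covered the start of RNA28SN4 at 130070 to 130362, with 42 tags on 14.8 (2.72-fold). Another at 125065 to 125278 lay 727 bp before RNA18SN4 with 61 tags (1.86-fold), and another at 173087 to 173385 lay 2207 bp past the start of RNA18SP4 with 40 tags (2.46-fold). Before RNA18SP4, 63 tags were found at 168751 to 169119 (1.87-fold) and 48 tags at 163303 to 163606 (1.93-fold). On GL000220.1 the member with the highest −log10 q, 4.71, was at 141980 to 142206 in the spacer between units, with 68 tags on 28.4 (2.35-fold). A member at 120796 to 121060 began 2016 bp past the end of RNA45SN5 with 60 tags (1.95-fold), one at 122570 to 122773 had 40 tags (1.82-fold), and one at 156074 to 156586 overlapped the 5.8S pseudogene RNA5-8SP8.

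Each of the 2 full units on the scaffolds had a FLAG member within 1 kb past the end of 45S. On GL000220.1 a member at 119769 to 120009 began 989 bp past the end of RNA45SN5 with 98 tags on 53.6 (1.81-fold, −log10 q of 3.55). On KI270733.1 one at 135669 to 135918 began 24 bp past the end of RNA45SN4 with 100 tags on 59.4 (1.67-fold, −log10 q of 2.24). A chromosome 21 FLAG peak, which is no member, began 122 bp past RNA45SN1 with 56 tags on 29.7 (1.86-fold, −log10 q of 1.41). A chromosome 21 SMAD3 peak, also no member, began 384 bp past RNA45SN2 with 82 tags (1.77-fold). No FLAG peak began within 1 kb past RNA45SN2, and the nearest past RNA45SN3 began 5946 bp after its end. So 3 of the 5 units with an annotated 45S had such a FLAG peak. The peaks past the 45S ends were picked out after their positions were seen, and whether the lists differ there was not tested. Within the units, a FLAG member at 154216 to 154746 overlapped RNA18SP3 with 37 tags (2.33-fold, −log10 q of 2.14), and 3 lay downstream of RNA18SP4 at 177259 to 177511, 177759 to 178316 and 179307 to 179555 with 49, 42 and 26 tags. The other two lay at 157634 to 157899 on GL000220.1, with 32 tags (2.02-fold), and before RNA18SP4 at 168038 to 168322, with 82 tags on 48.6 (1.67-fold).

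**Figure D5:**
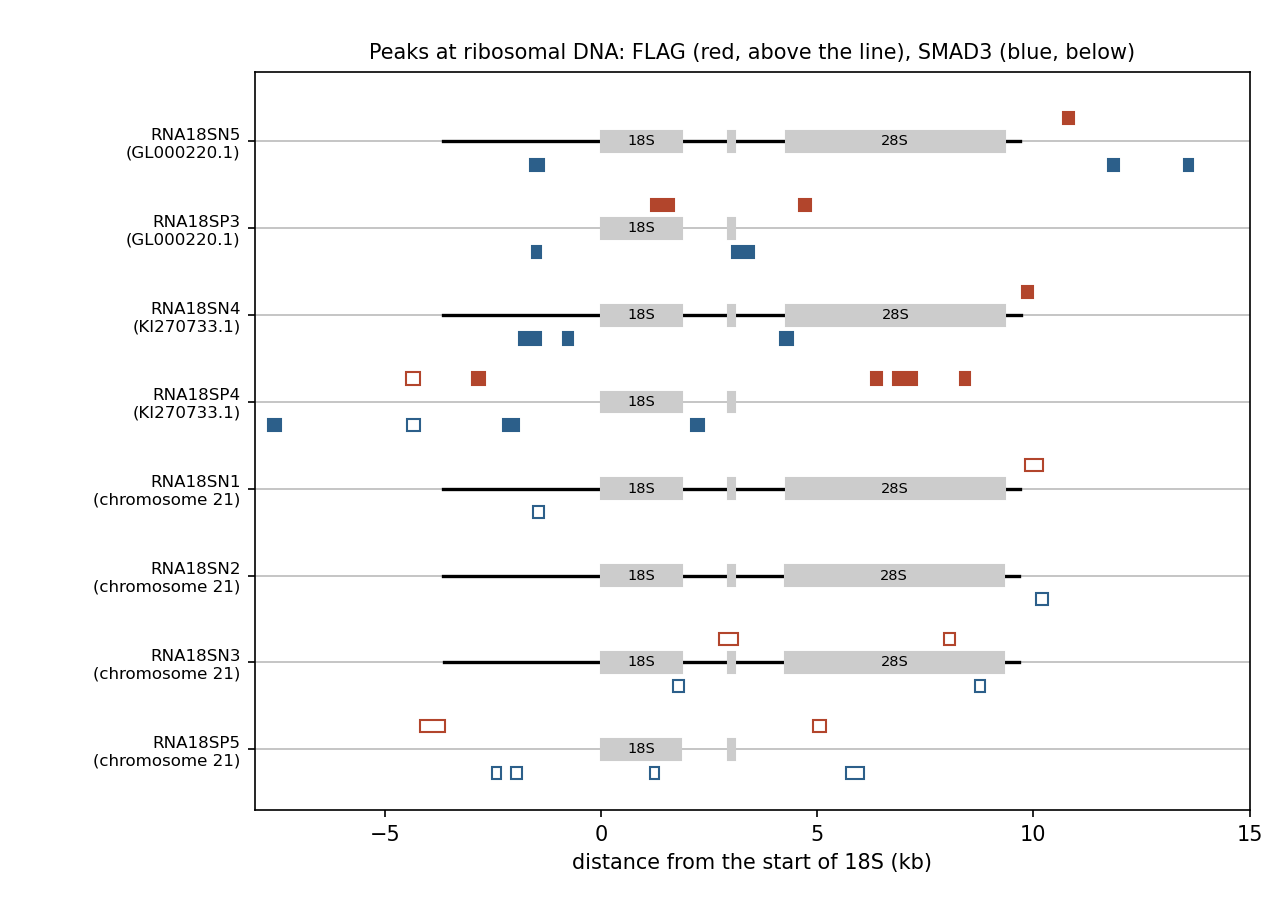
Peaks at the annotated ribosomal DNA units by distance from the start of 18S (kb), with FLAG peaks in red above each line and SMAD3 peaks in blue below; filled boxes are members, open boxes are other peaks, and the bold line is the annotated 45S transcript. Blue boxes recur about 1.5 kb before 18S (summits 1370 to 1510 bp before it) in 4 units.

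Members were by rule free of overlap with the other list, and their distances to it varied. Of the 342 FLAG members 115 lay on contigs with no SMAD3 peak and have no distance. A SMAD3 peak lay within 1 kb of 21 (6.14%), against 1.25% of unshared FLAG peaks on assigned chromosomes, and within 10 kb of 75 (21.9%), against 13.3%. Of the 179 SMAD3 members 48 lay on contigs with no FLAG peak. A FLAG peak lay within 1 kb of 9 (5.03%), against 1.35% on assigned chromosomes, and within 10 kb of 32 (17.9%), against 12.5%. Distances on a contig cannot exceed its length, and contigs are shorter than chromosomes, so these shares are not like for like. The lists were called from libraries of different fragment length and input, so a place in 1 list only does not show that the other protein was absent.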

How the data were processed

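ChIP-seq was made on A549 cells with retroviral ATOH8, with 1 FLAG ChIP, 1 SMAD3 ChIP and 1 input for each. Per the submitters' processing notes, FastQC 0.11.8, Bowtie2 and MACS2 2.2.7.1 were used on hg38. The names of the aligned reads in the headers carry 'uniq', but whether reads with several matches were removed is not stated. Per the file headers, peaks were called at a p cutoff of 0.0065 on single-end tags, ChIP against matching input, and duplicates at a position were reduced to 1 tag. The deposited peak lists give pileup signal in tags, fold enrichment as a ratio over local background, −log10 p and −log10 q, and width in bp. The headers state that q was not calculated, while the column holds values of 0 upwards, which were used as they stand.

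Overlap of 1 bp or more was counted in Python 3.11.15 with pandas 2.3.3, numpy 2.4.6 and scipy 1.17.1, with figures from matplotlib 3.10.9. Counts equalled those of bedtools 2.31.1. The code was tested on simulated data. Background was solved from pileup and fold with 1 added to each. With 1 library per antibody, shares have 95% Clopper-Pearson intervals and no test was made. Named regions were the 5 members of each list highest in fold, the 3 highest in pileup and the 3 widest. Named contigs were those with 10 or more members or among the 5 with most in a list. Members named outside this rule, in the accounts of runs, high-input scaffolds, ribosomal DNA and long sequences, were chosen after their values were seen. The members and lists were chosen with earlier results of these data known. The planned count of gene families was possible for ribosomal RNA alone, and the planned sequence features were not computed.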

Additional observations from a re-analysis of the deposited data

How the results depend on the processing

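No paired analysis was possible because each group holds 1 library. Member counts, shares and medians were recomputed under planned settings and under settings chosen after seeing the data (primary scaffolds only, ribosomal DNA scaffolds left out, runs left out, KI270772.1 and KI270894.1 left out). A count was taken as moved when it changed by more than 1.5 times, and a share or median when it left the 95% interval of the reported value, so medians with narrow intervals move easily. By this measure 43 recomputed values moved and 93 did not. None moved with 50% reciprocal overlap, with a gap of up to 1 kb counted as shared, with overlapping peaks kept, or without the ribosomal DNA scaffolds. Without the contig with most members of each list, the share of FLAG members on alternate loci or patches was 56.7%. At −log10 q values of at least 1.3, members numbered 153 for FLAG and 26 for SMAD3, by construction; median pileups were 32 and 36.5 tags, median backgrounds 8.24 and 13.2 tags, shares on alternate loci or patches 41.8% and 30.8%, and the median FLAG fold and width 3.87 and 413 bp. At values of at least 5, 75 and 3 were left, with median folds of 3.79 and 3.35, pileups of 54 and 54 tags, widths of 496 and 208 bp and backgrounds of 14.8 and 13.7 tags, and a SMAD3 share on alternate loci or patches of 33.3%. With a background under 5 tags, the shares with q under 0.05 were 28.5% and 6.94% and the median pileups 9 and 7.5 tags. On primary scaffolds only, 168 and 90 members were left, with median folds of 2.97 and 2.81, pileups of 12 and 10 tags and backgrounds of 2.83 and 2.52 tags, and a FLAG share with q under 0.05 of 53.0%. Without the runs, 222 FLAG members were left, of which 30.2% had a q under 0.05, with a median pileup of 9 tags, width of 285 bp and background of 1.65 tags, and 60.8% on alternate loci or patches. The FLAG share with q under 0.05 on alternate loci was then 18.3%, and it was 23.4% without KI270772.1 and KI270894.1; on primary scaffolds it was 46.0% without runs. Apart from the smaller counts, the cause was not tested. With 1 library per antibody the spread between cultures is unknown, and near-identical copies leave the origin of tags on these sequences uncertain.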
